A study of Mus musculus with 32 samples.

Results

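The microRNAs miR-378a, miR-193a, miR-193b and miR-365, each of which has been linked to fat cells, were followed in the mesenteric arteries of mice given angiotensin II (Ang II). They were taken by name from the miRNA table, with both arms of each hairpin and with the highest-mean row kept for a repeated name. This gave 10 deposited rows and 9 distinct miRNAs, of 1030 distinct miRNA rows in all. The groups were 14-day Ang II, 14-day sham, 7-day Ang II and 7-day sham, with 8 libraries each and 32 in total. All mice were male wild-type C57BL/6J animals aged 10 to 12 weeks. Ang II, a peptide hormone that narrows vessels and raises blood pressure, was infused under the skin from osmotic minipumps at 1000 ng/kg/min, whereas sham mice had the operation alone. The arteries were freed of fat and veins by dissection, and small RNA libraries were made from 1 µg of total RNA of the whole vessel.

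MicroRNAs are cut from a hairpin that can yield a mature strand from its 5p and its 3p arm, and a strand recognises its targets mainly through its seed (bases 2 to 8). The miR-193 and miR-365 genes lie in pairs, miR-193a beside miR-365-2 and miR-193b beside miR-365-1, and the miR-193b and miR-365 pair is known for promoting brown fat cell formation in mouse cell culture. miR-378a lies within Ppargc1b, the gene of a coactivator of mitochondrial genes, and is known from mouse work for roles in fat and muscle metabolism. None of these miRNAs is made by fat cells alone, and miR-378a is also abundant in striated muscle. Small RNA carries no messenger RNA, so markers of fat cells such as adiponectin were not measured and the link to fat rests on background knowledge.

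The mature strands from RefSeq (GRCm38.p6) are shown because shared seeds and near-identical bases bear on which reads can be told apart. Sequences are shown for 7 of the 9 miRNAs, without the 2 miR-378a strands. They run 5′ to 3′ and the seed is in capitals.
miR-193a-3p: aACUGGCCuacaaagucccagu
miR-193b-3p: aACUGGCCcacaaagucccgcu
miR-365-3p: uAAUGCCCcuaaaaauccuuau
miR-365-2-5p: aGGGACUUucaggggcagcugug
miR-365-1-5p: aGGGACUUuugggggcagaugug
miR-193a-5p: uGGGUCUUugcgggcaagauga
miR-193b-5p: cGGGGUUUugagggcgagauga

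miR-193a-3p and miR-193b-3p shared the seed ACUGGCC and 19 of 22 bases. Counted from 1 at the 5′ end, with the miR-193a-3p base first, they differed by U9C, A20G and G21C. miR-365-3p had the seed AAUGCCC and was the same from both of its hairpins, so its reads could not be assigned to either gene. The 5p strands of those hairpins shared the seed GGGACUU and 20 of 23 bases, and differed by C10U, A11G and C19A, with the miR-365-2-5p base first. The 2 miR-193 5p strands had different seeds and shared 17 of 22 bases.

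In the GRCm38 annotation, the miR-193a hairpin spans chr11:79711969-79712034 and the miR-365-2 hairpin chr11:79726400-79726511, both on the plus strand and outside other annotated genes, with 14.4 kb between them. The miR-193b hairpin spans chr16:13449523-13449601 and the miR-365-1 hairpin chr16:13453840-13453926, also on the plus strand, with 4.24 kb between them. Both of these lie in an intron of Gm15738, which is transcribed from the opposite strand. The miR-378a hairpin lies in an intron of Ppargc1b on the same strand, and in an exon of Gm25301 on the opposite strand.

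The deposited values were whole reads divided by a library-specific size, and are called normalised RPM here (reads per M, where M is mega). Libraries held 11.39 to 18.78 M reads in distinct rows, and the 9 miRNAs together took 9499 to 35650 reads per library, or 0.078 to 0.229% of them. The smooth muscle miRNA miR-143-3p took 46.9% ± 3.72 of the reads (SD, n = 32), and the endothelial miR-126-3p averaged 1878 RPM, so markers of the labelled tissue were present. Listed markers of other tissues were present too. In 7-day sham libraries the mean summed level was 4269 RPM for pancreatic, 2657 RPM for liver and gut and 2223 RPM for epithelial markers. The libraries also fell into 2 classes along the leading component of their variation within groups, which carried 35.55% of that variance and was computed without the 9 miRNAs after group means were removed. The sign of the component was set so that miR-365-3p rose along it, and the upper side was named class A. That miR-365-3p is higher in class A rather than class B was thus set by this choice. Class A held 19 libraries and class B 13. At 14 days class A took 6 of 8 Ang II libraries and 5 of 8 sham libraries, and at 7 days it took 3 of 8 Ang II libraries and 5 of 8 sham libraries.

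The 9 miRNAs covered a wide range of abundance. miR-378a-3p was the most abundant at a mean of 1027 ± 155 RPM (SD, n = 32), which ranked 48 of 1030. miR-365-3p followed at 114.1 ± 27.9 RPM, ahead of miR-193b-3p at 58.2 ± 9.34 RPM. miR-378a-5p averaged 18.7 ± 5.10 RPM and miR-193a-3p 8.01 ± 2.63 RPM. The lowest miR-378a-3p library, at 781.9 RPM, was above the highest miR-365-3p library, at 166.1 RPM, whereas the ranges of miR-365-3p and miR-193b-3p met, at 66.6 to 166.1 RPM and 37.95 to 74.8 RPM. These 5 strands passed the filter of a mean of at least 1 RPM over all libraries and were tested with 538 other miRNAs.

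The other 4 strands were near the detection limit, since 3 reads correspond to 0.0888 to 0.351 RPM depending on the library. miR-365-2-5p averaged 0.462 RPM, miR-193a-5p 0.385 RPM, miR-193b-5p 0.373 RPM and miR-365-1-5p 0.131 RPM over the 32 libraries. miR-365-1-5p had no read in 7 libraries, and miR-365-2-5p and miR-193b-5p had none in 1 library each. The 3p arm thus carried nearly all reads of each hairpin that could be resolved: the 5p arm had 1.78% ± 0.361 of the miR-378a reads, 4.86% ± 2.58 of the miR-193a reads and 0.649% ± 0.319 of the miR-193b reads (SD, n = 32).

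**Figure D1:**
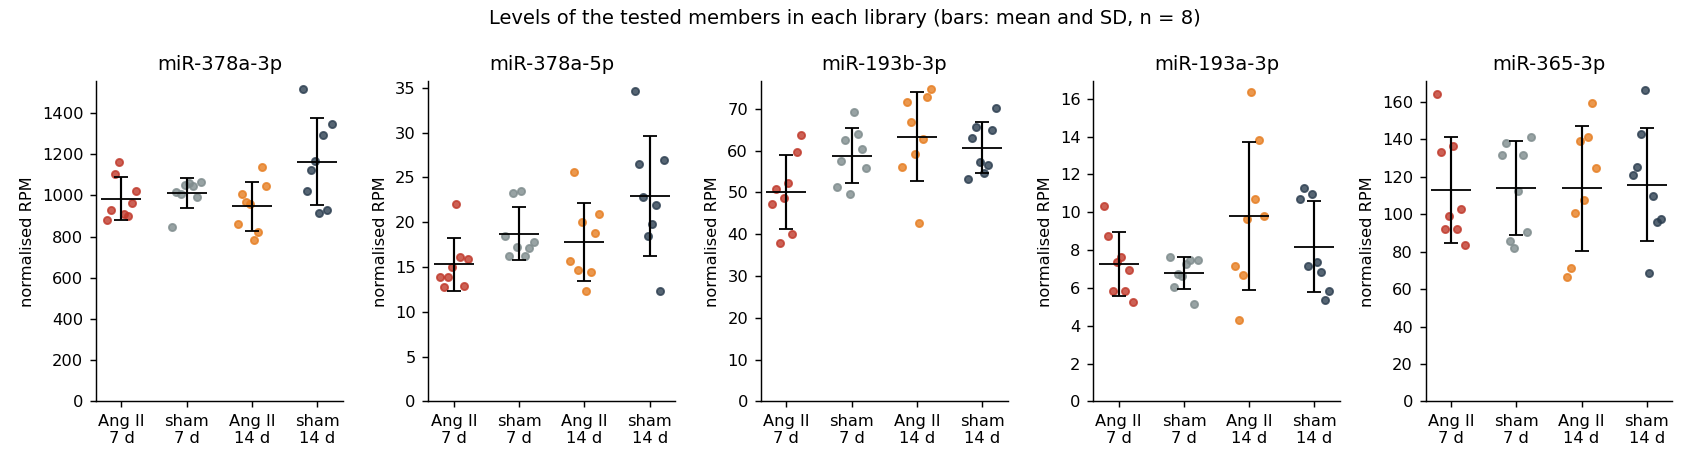
Normalised RPM of the 5 tested miRNAs in every library, on linear axes that start at 0, with points for libraries and bars for the group mean and SD (n = 8). The groups overlapped for all 5 miRNAs at both times, and miR-378a-3p in 14-day Ang II libraries lay below the 14-day sham median of 1146 RPM in 8 of 8 libraries.

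The question of the Ang II comparisons was whether these miRNAs differed in arteries of infused mice at 7 or 14 days. None of the 5 tested miRNAs passed the threshold at 7 days or at 14 days with limma. miR-378a-3p at 14 days was closest to it: its fold was 0.820 of sham, and the call changed with the tool. The 7-day and 14-day comparisons used separate libraries, but both were made in 1 limma-trend model of log2(RPM + 1) over 543 miRNAs, with Benjamini-Hochberg adjustment over all 543 and a two-sided threshold of 0.05. Fold changes are on that log2(RPM + 1) scale, which understates changes of low miRNAs.

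At 14 days, miR-378a-3p ranged between 781.9 and 1137 RPM in Ang II libraries with a median of 962.6, against 913.6 to 1518 RPM in sham libraries with a median of 1146. All 8 Ang II libraries were below the sham median and 3 were below every sham library, so the groups overlapped. The mean was 947.4 ± 119 RPM with Ang II and 1164 ± 212 RPM in sham (SD, n = 8 each). The log2 fold change was -0.29 (SE 0.096, 95% interval -0.48 to -0.09), with an unadjusted p of 0.00573 and an adjusted p of 0.0634 in limma. At 7 days miR-378a-3p averaged 983.6 RPM with Ang II and 1011 RPM in sham, so the 14-day sham group had the highest mean. From 7 to 14 days its log2 fold change was 0.19 in sham (unadjusted p = 0.0634, adjusted p = 0.996 in limma). With Ang II it was -0.06 (unadjusted p = 0.557, adjusted p = 0.826 in limma). In bulk vessel RNA, fewer cells of a type and less of the miRNA per cell cannot be told apart.

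Of the 5 miRNAs, 0 were called at 14 days, where limma called 6.45% of the 543 (24 higher and 11 lower), and 2 of 5 had an unadjusted p under 0.05, where 25.8% of all did. edgeR's quasi-likelihood test on the recovered reads called 1 of 5 (10.1% of all), and DESeq2 called 1 of 5 (11.2% of all), in each case miR-378a-3p. Its adjusted p was 0.0485 in edgeR and 0.0242 in DESeq2. Over 12 other settings, miR-378a-3p was called in 5 and its log2 fold change ran from -0.37 to -0.02. The value of -0.02 came from scaling by library totals alone (adjusted p = 0.962 in limma), a scaling under which the median of all 543 miRNAs moved to 0.23. Against that median, miR-378a-3p was lower under this scaling too. That median covers miRNAs of all levels, and no median of abundant miRNAs was computed under this scaling. On the deposited scaling, miRNAs with a mean of at least 10 RPM had a median of -0.09, against 0.00 for all 543. Leaving out sham replicate 5 (-0.33, adjusted p = 0.0419 in limma) or sham replicate 7 (-0.33, adjusted p = 0.0450) also brought the call.

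**Figure D2:**
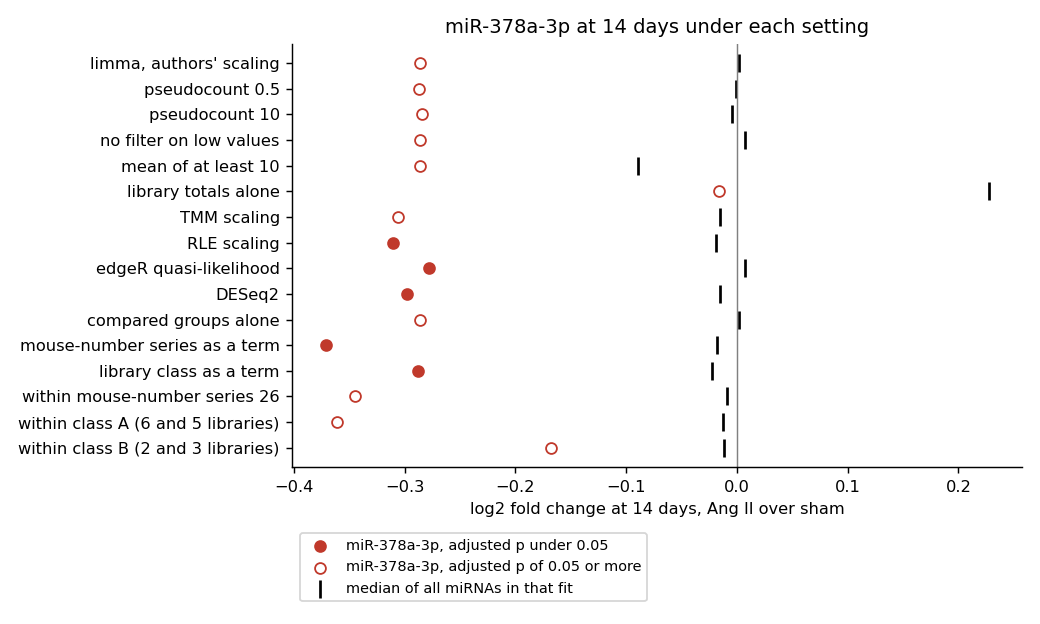
Log2 fold change of miR-378a-3p, Ang II over sham at 14 days, under each alternative setting, with filled points where the adjusted p was under 0.05, open points otherwise, and ticks for the median of all miRNAs. The values lie between -0.37 and -0.02, and the setting nearest to 0 is scaling by library totals alone.

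The leading digits of the mouse numbers in the labels split the libraries into series, which the labels do not call batches. Within series 26, which held 5 of the Ang II and 6 of the sham mice at 14 days, the miR-378a-3p log2 fold change was -0.34 (adjusted p = 0.248 in limma). With the series as a term in the full model it was -0.37 (adjusted p = 0.0268). Within class A it was -0.36 (adjusted p = 0.135) and within class B, with 2 Ang II and 3 sham libraries, -0.17 (adjusted p = 0.595). Limma called no miRNA at all within series 26, class A or class B, so the missing call there is not particular to miR-378a-3p. Its direction was the same in each of these subsets. They are overlapping parts of the same 14-day libraries, so the shared direction is not a replication.

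The 5p strand of the same hairpin, miR-378a-5p, ranged from 12.3 to 25.6 RPM in 14-day Ang II libraries with a median of 17.2, against 12.3 to 34.6 RPM in sham libraries with a median of 22.4. Of the Ang II libraries, 7 of 8 were below the sham median and 0 of 8 were below every sham library. Its log2 fold change was -0.33 (SE 0.16, unadjusted p = 0.0447, adjusted p = 0.182 in limma). It was -0.44 within series 26 (adjusted p = 0.323), -0.53 within class A (adjusted p = 0.135) and 0.09 within class B (adjusted p = 0.869), so the direction was not the same in both classes.

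miR-378b, miR-378c and miR-378d, relatives that carry other names in the table, followed miR-378a-3p closely. Over the 32 libraries miR-378b stood at 14.9% ± 0.561 of the miR-378a-3p level, miR-378c at 20.7% ± 1.90 and miR-378d at 4.28% ± 0.270 (SD). Their reads may have been shared with miR-378a-3p, because the treatment of reads with several matches is not given in the sources used here, and their values are uncertain as separate measurements. At 14 days miR-378c averaged 189 ± 31.2 RPM with Ang II and 239.9 ± 41.0 RPM in sham (SD, n = 8 each), with 8 of 8 Ang II libraries below the sham median. Its log2 fold change was -0.34 (adjusted p = 0.0586 in limma), beside -0.27 for miR-378b (adjusted p = 0.0909) and -0.27 for miR-378d (adjusted p = 0.117). DESeq2 called miR-378c (adjusted p = 0.0335) and miR-378b (adjusted p = 0.0462) at 14 days. In limma, miR-378b was called with the series term (adjusted p = 0.0326), and miR-378c with the class term (adjusted p = 0.0360) and with a mean of at least 10 RPM (adjusted p = 0.0465). With library totals alone they stood at -0.00122 for miR-378b and -0.07 for miR-378c on the log2 scale. miR-378d was called in 0 of 15 other settings. At 7 days the 3 relatives lay between -0.01 and 0.02.

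The miR-193 and miR-365 strands did not differ detectably between the groups at 14 days. miR-193b-3p ranged from 42.7 to 74.8 RPM with Ang II (median 64.8), against 53.3 to 70.3 RPM in sham (median 60.2), and the Ang II group held both the lowest and the highest library. Its log2 fold change was 0.05 (95% interval -0.18 to 0.27, adjusted p = 0.815 in limma). miR-365-3p ranged from 66.6 to 159.2 RPM with Ang II (median 115.9), against 68.5 to 166.1 RPM in sham (median 115.3), and the ranges almost coincided. Its log2 fold change was -0.04 (95% interval -0.42 to 0.34, adjusted p = 0.902), and 0.23, the median of all miRNAs, with library totals alone.

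Of the groups, miR-193a-3p was most variable in 14-day Ang II libraries, where it ranged from 4.30 to 16.3 RPM with a median of 9.75, against 5.38 to 11.3 RPM in sham with a median of 7.26. It was above every sham library in 2 Ang II libraries and below every one in 1. Its log2 fold change was 0.19 (95% interval -0.19 to 0.57, adjusted p = 0.524 in limma), and -0.12 within series 26.

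**Figure D3:**
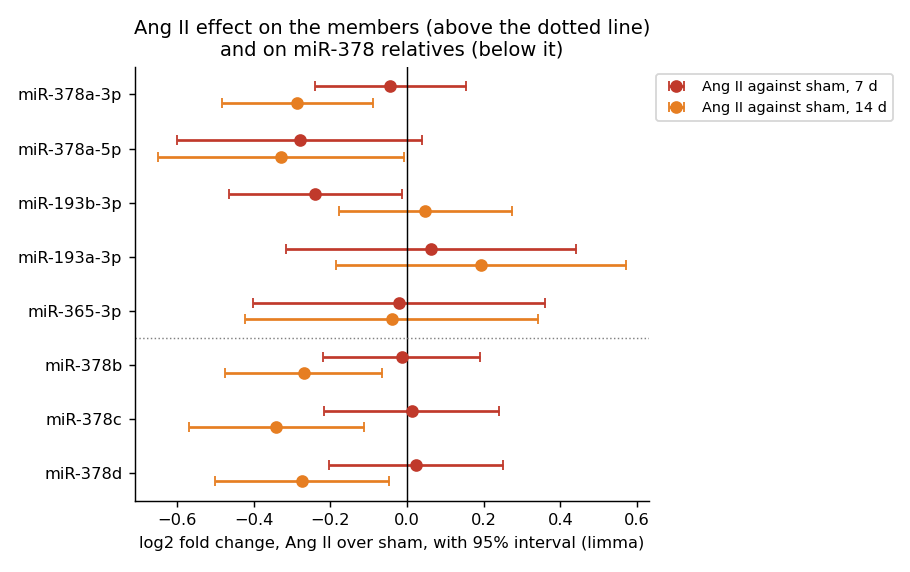
Log2 fold change, Ang II over sham, of the 5 tested miRNAs and the 3 miR-378 relatives at both times, with 95% intervals from limma. At 14 days miR-378a-3p stood at -0.29 and miR-193b-3p at 0.05, and at 7 days miR-193b-3p stood at -0.24 and miR-378a-3p at -0.04.

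At 7 days, 0 of the 5 miRNAs were called, where limma called 0.184% of the 543 (1 miRNA), and edgeR and DESeq2 called 0 of 5 as well. The unadjusted p was under 0.05 for 1 of 5 in limma, where it was for 6.81% of all miRNAs. It was so for 0 of 5 in edgeR and 1 of 5 in DESeq2, for which the share of all was not counted. The lowest unadjusted p was that of miR-193b-3p. It ranged from 37.95 to 63.8 RPM in Ang II libraries with a median of 49.8, against 49.6 to 69.2 RPM in sham libraries with a median of 59.0. Below every sham library lay 4 of the 8 Ang II libraries, and the upper 4 lay within the sham range. The mean was 50.1 ± 8.81 RPM with Ang II and 58.8 ± 6.59 RPM in sham (SD, n = 8 each), a log2 fold change of -0.24 (SE 0.11, unadjusted p = 0.0381, adjusted p = 0.668 in limma).

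On the deposited scaling, most 7-day Ang II libraries lay below the sham libraries for miR-378a-5p, some of them by a small margin. It ranged from 12.7 to 22.01 RPM with Ang II (median 14.5), against 16.2 to 23.5 RPM in sham (median 17.5). Of the Ang II libraries, 7 of 8 lay below every sham library, and replicate 5 alone, at 22.01 RPM, lay among them. The margin was narrow, since Ang II replicate 6 had 16.12 RPM and the lowest sham library 16.21 RPM. This count was not made on another scaling. The log2 fold change was -0.28 (SE 0.16, adjusted p = 0.758 in limma), and it was -0.27 within series 27 and -0.29 within series 28. Class A alone gave -0.20 and class B alone -0.35. Its partner strand miR-378a-3p ranged from 879.4 to 1163 RPM with Ang II (median 947.1), against 845.8 to 1066 RPM in sham (median 1032), a log2 fold change of -0.04 (95% interval -0.24 to 0.15, adjusted p = 0.958).

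miR-365-3p and miR-193a-3p were close to sham at 7 days. miR-365-3p averaged 112.8 ± 28.3 RPM with Ang II and 114.1 ± 24.9 RPM in sham (SD, n = 8 each), a log2 fold change of -0.02 (95% interval -0.40 to 0.36, adjusted p = 0.995 in limma). miR-193a-3p averaged 7.25 ± 1.69 RPM with Ang II and 6.80 ± 0.847 RPM in sham, a log2 fold change of 0.06 (95% interval -0.31 to 0.44, adjusted p = 0.967). Both sets of libraries overlapped, with 3 Ang II libraries above every sham library for miR-193a-3p and 1 for miR-365-3p.

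Neither time differed detectably from the other. For the difference of the Ang II effects (14 days minus 7 days), limma called 0 of the 5 miRNAs and 0% of all, edgeR and DESeq2 called 0 of 5, and 0 of 5 had an unadjusted p under 0.05 with any of the 3 tools, where 4.6% of all did in limma. The differences were -0.24 for miR-378a-3p and 0.29 for miR-193b-3p on the log2 scale, with the smallest adjusted p of the 5 at 0.804 in limma. Between the sham groups, 14 days against 7 days, limma called 0 of 5 and 0% of all, with adjusted p of 0.996 or more, and edgeR and DESeq2 also called 0 of 5. At an unadjusted p under 0.05 there were 0 of 5 in limma (3.31% of all), 1 in edgeR and 0 in DESeq2. The log2 fold changes of all 5 lay above 0, as did those of 275 of the 543. They were 0.19 for miR-378a-3p and 0.24 for miR-378a-5p, and the 3 miR-378 relatives lay between 0.18 and 0.20. Between the Ang II groups, limma again called 0 of 5 and 0% of all, and edgeR and DESeq2 called 0 of the 5. An unadjusted p under 0.05 was found for 1 of 5 in limma (7.37% of all) and 2 in each of the other tools. Shares of all miRNAs at this unadjusted level were counted for limma alone. The edgeR and DESeq2 counts at this level therefore have no background to be read against.

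In Ang II mice, miR-193b-3p averaged 63.4 ± 10.7 RPM at 14 days and 50.1 ± 8.81 RPM at 7 days (SD, n = 8 each), a log2 fold change of 0.33 (unadjusted p = 0.00512, adjusted p = 0.576 in limma). It was 0.34 with the series term and 0.34 with the class term. The log2 fold change of miR-193a-3p was 0.33 (adjusted p = 0.669 in limma), but 0.05 with the series term and 0.15 with the class term. For miR-365-3p it was -0.26 with the class term, and for miR-378a-3p -0.22 with the series term. These comparisons share libraries with the Ang II comparisons above, and the mouse-number series were spread unequally over the times.

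The 4 low strands were described from their reads, with limma values from a model without the filter. miR-193b-5p had 77 reads in the 14-day Ang II libraries and 32 in the sham libraries. It averaged 0.50 ± 0.16 RPM with Ang II and 0.278 ± 0.125 RPM in sham (SD, n = 8 each). It exceeded the sham median in all 8 Ang II libraries and 4 were above every sham library, with an adjusted p of 0.160 in limma. At 7 days miR-193b-5p had 46 reads with Ang II and 47 in sham. miR-193a-5p had 59 reads with Ang II and 47 in sham at 14 days, and 39 with Ang II and 60 in sham at 7 days. For these strands and the miR-365 5p strands, the adjusted p was 0.160 or more at both times. A single read moved several of these values, since libraries held 0 to 23 reads of each.

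The 5p strands are the only strands that separate the 2 miR-365 hairpins. miR-365-2-5p, from the pair with miR-193a, had 249 reads over the 32 libraries, and miR-365-1-5p, from the pair with miR-193b, had 63. miR-365-2-5p was higher in 28 libraries and lower in 4. The 3p strands of the linked miR-193 genes had the opposite order: miR-193b-3p was on average 7.27 times as abundant as miR-193a-3p, with 2.61 to 16.7 times per library. With so few 5p reads, the levels of the 2 hairpins cannot be compared beyond this count, and reads of similar strands may have been assigned unequally.

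Ratios between strands of the same library do not depend on how libraries were scaled. Of 8 such comparisons (4 ratios at 2 times), tested by exact two-sided permutation tests with Benjamini-Hochberg adjustment over the 8, none had an adjusted p under 0.05. miR-378a-3p over miR-193b-3p had a mean log2 ratio of 3.91 ± 0.151 in 14-day Ang II libraries and 4.25 ± 0.316 in sham libraries (SD, n = 8 each). The difference of -0.33 had an exact permutation p of 0.0132 and an adjusted p of 0.106. The ratio was below the sham median in 7 of 8 Ang II libraries. At 7 days the same difference was 0.20 (exact permutation p = 0.114, adjusted p = 0.228).

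The other ratios gave smaller or more variable differences. miR-378a-5p over miR-378a-3p differed by -0.25 at 7 days (exact permutation p = 0.0878, adjusted p = 0.228) and by -0.06 at 14 days. At each time 6 of 8 Ang II libraries had a ratio below the sham median. Without Ang II replicate 5 the 7-day difference was -0.35 (unadjusted exact permutation p = 0.00932). miR-193a-3p over miR-193b-3p differed by 0.31 at 7 days (exact permutation p = 0.0890, adjusted p = 0.228). The ratio exceeded the sham median in 7 of 8 Ang II libraries. Without Ang II replicate 8 that difference was 0.43 (unadjusted exact permutation p = 0.00777). At 14 days the ratio differed by 0.16 (exact permutation p = 0.637, adjusted p = 0.698), and it exceeded the sham median in 5 of 8 Ang II libraries. miR-193b-3p over miR-365-3p differed by -0.22 at 7 days and 0.09 at 14 days, where the spread within groups was 0.36 to 0.50.

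**Figure D4:**
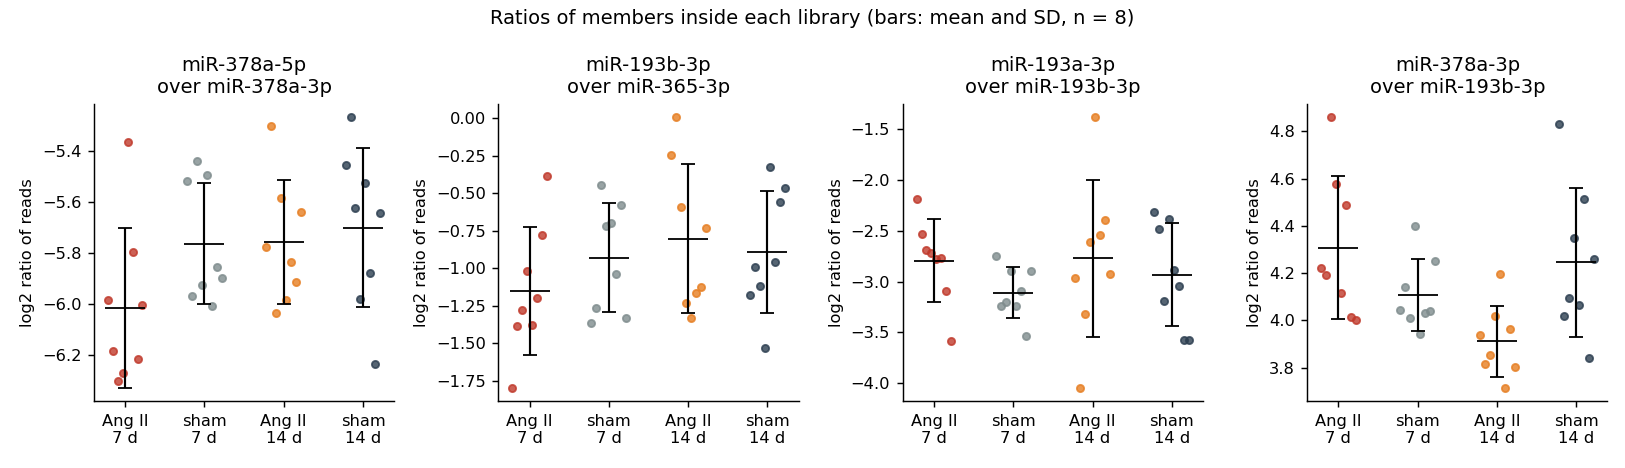
Log2 ratio of reads of 2 miRNAs within each library, by group, with points for libraries and bars for the mean and SD (n = 8). miR-378a-3p over miR-193b-3p had means of 3.91 in 14-day Ang II libraries and 4.25 in 14-day sham libraries, and none of the 8 differences had an adjusted p under 0.05.

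On the deposited scaling, the 4 miRNAs did not vary together as a single index. miR-365-3p followed the library classes: 18 of 19 class A libraries were above every class B library, with 100.8 to 166.1 RPM in class A and 66.6 to 102.5 RPM in class B. miR-193a-3p did so in part, with 14 of 19 class A libraries above every class B library, at 6.05 to 16.3 RPM in class A and 4.30 to 7.38 RPM in class B. For miR-193b-3p the count was 2 of 19 and for miR-378a-3p it was 1 of 19. The classes were defined from the data and are not groups of the study, and their part in the levels was not tested.

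**Figure D5:**
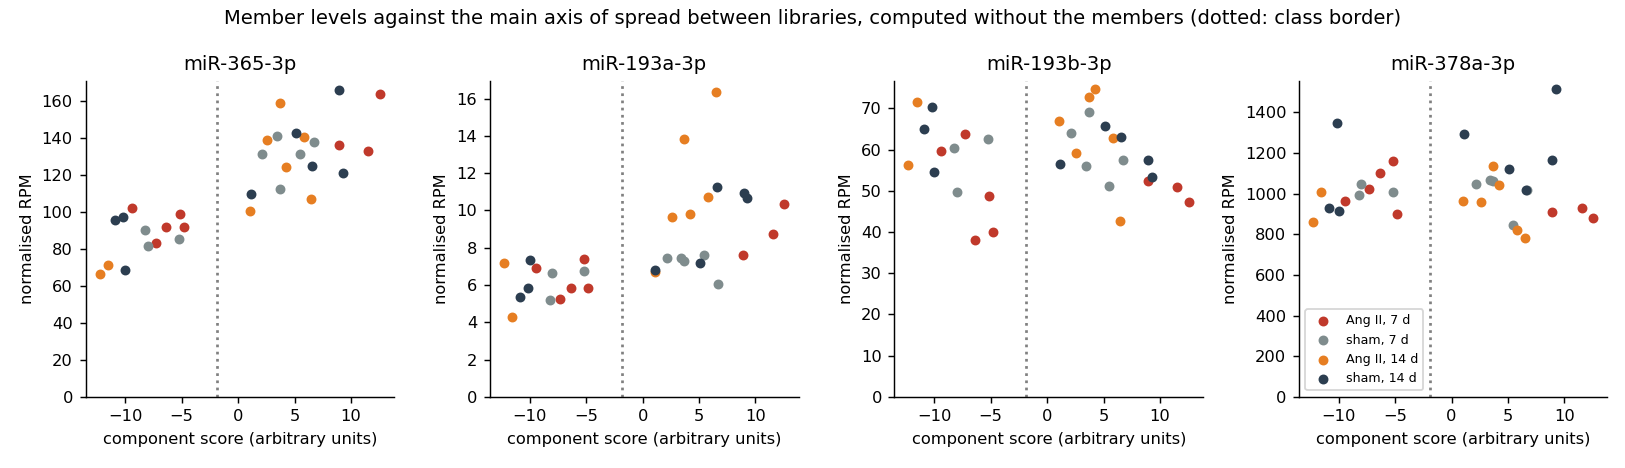
Normalised RPM of the 4 3p strands in each of the 32 libraries (points, coloured by group) against the score on the leading component of the other miRNAs, in arbitrary units, where the dotted line separates class A (19 libraries) from class B (13). On the deposited scaling, miR-365-3p lay at 100.8 to 166.1 RPM in class A and at 66.6 to 102.5 RPM in class B. On that scaling, 18 of 19 class A libraries were above every class B library for miR-365-3p, against 1 of 19 for miR-378a-3p.

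With group and class means removed, 10 pairs of the 5 tested strands were correlated over the 32 libraries, and p-values came from permutation within group and class. The 2 strands of the miR-378a hairpin had the highest correlation, Pearson r = 0.53 and Spearman rho = 0.49 (permutation p = 0.017 and 0.02). The adjusted p over 10 pairs was 0.17, and r was 0.36 without the 2 libraries farthest from the median of miR-378a-3p. It was 0.49 in class A and 0.58 in class B, and 0.58, 0.22 and 0.67 within mouse series 26, 27 and 28. miR-193b-3p and miR-365-3p, from linked genes, had r = 0.22 and rho = 0.16 (permutation p = 0.30 and 0.41, adjusted p = 0.60). miR-193a-3p and miR-365-3p had r = 0.16, against 0.66 when group means alone were removed. For this pair r was 0.32 in class A and -0.28 in class B. The part of the classes in the higher value was not tested. miR-193a-3p and miR-193b-3p, which share a seed, had r = -0.37 and rho = -0.29 (permutation p = 0.086 and 0.16, adjusted p = 0.25), and r = -0.19 without the 2 farthest libraries. Within series 26, 27 and 28 that r was -0.72, -0.09 and -0.05. None of the 10 pairs had an adjusted p under 0.05.

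Each 3p strand had different miRNAs nearest to it in pattern, by Pearson r of log2 values with group means removed over 32 libraries, given as a description because the values share a library and a scaling. Nearest to miR-378a-3p were miR-378b (0.96), miR-378d (0.91) and miR-378c (0.78). Nearest to miR-193b-3p were miR-23a-3p (0.73), miR-28a-3p (0.73) and miR-140-3p (0.70). Nearest to miR-193a-3p were miR-24-2-5p (0.84), miR-22-5p (0.77) and miR-322-5p (0.77). Nearest to miR-365-3p were miR-5097 (0.90), miR-125b-5p (0.90) and miR-497-5p (0.90), whose r fell to between 0.50 and 0.55 once class means were removed. miR-193b-3p was not among the miRNAs nearest to miR-365-3p, at r = 0.08.

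A list of 20 other miRNAs linked to fat in the literature, chosen with earlier results of these data known, was set beside them. All 20 were tested, and at 14 days 10 lay above 0 and 10 below, with a median log2 fold change of -0.04 against 0.00 for all 543 miRNAs. limma called 0 of the 20 higher, where it called 4.42% of all, and 1 lower, where it called 2.03% of all. That one was miR-203-3p, best known for its role in skin, at 60.9 ± 8.68 RPM with Ang II and 89.0 ± 21.1 RPM in sham (SD, n = 8 each), a log2 fold change of -0.52 (adjusted p = 0.0174). It was called in 10 of 15 other settings and lost the call within series 26, class A or class B, for the compared groups alone, and under library totals alone. No miRNA at all was called within series 26, class A or class B. The last 2 settings called fewer miRNAs than the main model. At 7 days 6 of the 20 lay above 0 and 14 below, with a median of -0.10 against -0.01 for all miRNAs, and limma called 0.

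Markers of striated muscle, in which miR-378a is abundant, also had log2 fold changes below 0 at 14 days, none of them called. The 3 tested markers (miR-1a-3p, miR-133a-3p and miR-133b-3p) had log2 fold changes of -0.22 to -0.20 (adjusted p = 0.333 to 0.427 in limma). The summed level of the 6 listed markers was 557.9 to 1208 RPM in 14-day Ang II libraries and 864.4 to 1151 RPM in sham libraries. miR-206-3p, miR-208b-3p and miR-499-5p averaged at most 0.0935 RPM. Of the 6 listed epithelial markers, 6 lay below 0 at 14 days, with a median of -0.71 and a summed level of 1057 to 1697 RPM with Ang II against 1259 to 4888 RPM in sham. The smallest p among them was that of miR-141-3p (-0.85, adjusted p = 0.0510 in limma).

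Lists of other cell types moved in both directions at 14 days. The 4 red blood cell markers all had log2 fold changes above 0, with a median of 0.99, and limma called 2 of them higher. These were miR-451a, at 1044 ± 296 RPM with Ang II and 587.0 ± 345 RPM in sham (log2 fold change 0.99, adjusted p = 0.0296), and miR-144-5p, at 64.0 ± 20.95 RPM with Ang II and 31.8 ± 17.5 RPM in sham (1.16, adjusted p = 0.0493; SD, n = 8 each). miR-451a was called in 9 of 15 other settings and miR-144-5p in 5 of 15, and with 1 library left out they were called in 12 and 5 of 16 fits. The summed level of the red blood cell markers was 14970 to 53130 RPM with Ang II and 5948 to 50260 RPM in sham.

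Of the 5 leukocyte markers, 4 lay above 0 (median 0.32), with a summed level of 587.9 to 1320 RPM with Ang II and 525.2 to 993.5 RPM in sham, and none was called. Below 0 lay 2 of 2 endothelial markers (median -0.33), 4 of 4 pancreatic markers (median -0.34), 2 of 3 liver and gut markers (median -0.75), 2 of 3 neuronal markers (median -0.15) and 3 of 4 smooth muscle markers (median -0.07), and none of these was called at 14 days. At 7 days limma called 1 listed miRNA, the smooth muscle miR-145a-3p, at 596.0 ± 142 RPM with Ang II and 895.5 ± 159 RPM in sham (log2 fold change -0.60, adjusted p = 0.0280). It was called in 10 of 16 other settings, and leaving out 1 library at a time kept the call in 6 of 16 fits. At 14 days miR-145a-3p averaged 560.3 RPM with Ang II and 604.2 RPM in sham, so the 7-day sham group had the highest mean. From 7 to 14 days in sham its log2 fold change was -0.56 (unadjusted p = 0.00015, adjusted p = 0.0817 in limma). The part of these cell types in the levels of miR-378a-3p and the other members was not tested.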

How the data were processed

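Small RNA of 32 mesenteric artery libraries was analysed from a table deposited by the authors as signal values, with miRNAs in rows and libraries in columns. Per the submitters' processing notes, the build was mm10 and the tools were STAR 2.3.1, edgeR 3.6.8, bcl2fastq 1.8.4, R 3.2.3 and FastQC, with no role stated. The scaling and the treatment of reads with several matches are not given in the sources used here. All 55104 values (100.0%) were whole multiples of the library's smallest step within 0.001 read, so whole reads were recovered from the deposited signal and used for count tests. The planned test for normalised values was therefore the main one.

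Of 1722 rows, 1030 distinct rows remained after all-zero, repeated and read-identical rows were merged or dropped, and 543 with a mean of at least 1 RPM were tested by limma 3.58.1 (limma-trend, log2(value + 1), R 4.3.3). Libraries held 11.39 to 18.78 M reads, and a limit of 3 reads covers counting error only, because PCR copies of a molecule were not marked by identifiers. Ratios used reads plus 0.5. Alternatives included edgeR 4.0.16, DESeq2 1.42.0, other scalings, filters, pseudocounts and terms, and each library left out. The fitting code was tested on simulated data. All member rows were named, with the 3 nearest patterns per 3p strand, and lists are given by counts, with the called rows named and otherwise at most 2 rows by smallest p. The third striated muscle marker and the 3 low ones were named after their values were seen. Libraries come from separately numbered mice. The members and lists were chosen with earlier results of these data known.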

Additional observations from a re-analysis of the deposited data

Results flagged for a closer look

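Of 52 sets of 8 libraries checked for a single library far from the others, 3 were flagged, and chance flags about 1 in 20. In 7-day Ang II libraries, miR-378a-5p stood at 22.01 RPM in replicate 5, where the next library had 16.12 RPM. In the same group, miR-365-1-5p stood at 0.3695 RPM in replicate 7, which is 4 reads, where the next had 0.0777 RPM. In 7-day sham libraries, miR-378a-3p stood at 845.8 RPM in replicate 1, where the next had 994.2 RPM.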

How the results depend on the processing

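No paired analysis was possible because the groups share no mouse numbers. In the 14-day comparison, the count of all called miRNAs (35) became 17 with no filter, 23 with library totals alone, 55 with edgeR, 61 with DESeq2, 3 with the compared groups alone, 80 with the class as a term, and 0 within series 26, class A or class B, and 1 of the 5 members was called with RLE scaling, edgeR, DESeq2, the series term or the class term. At 7 days the 1 called miRNA became 0 within series 27, series 28 or class A, for the compared groups alone, and under library totals alone. Between sham groups 1 was called with a mean of at least 10, edgeR, DESeq2, the compared groups alone, the series term or within class B, and between Ang II groups 1 with the series term. The cause was not tested.

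The signs that changed belonged to uncalled log2 fold changes. For Ang II against sham at 7 days they were miR-365-3p at 0.0231 and miR-378a-3p at 0.00123 with library totals alone, and miR-365-3p at 0.00143 with edgeR and 0.144 with the class term. They were also miR-365-3p at 0.198 and miR-378a-3p at 0.0195 within series 27, miR-193a-3p at -0.154 within series 28, miR-365-3p at 0.138 within class A, and miR-365-3p at 0.123 and miR-378a-3p at 0.0127 within class B. At 14 days they were miR-365-3p at 0.228 with library totals alone, miR-193b-3p at -0.0329 with the series term, miR-193a-3p at -0.118 within series 26, and, within class B, miR-193a-3p at -0.120 and miR-378a-5p at 0.0892. For the difference of the effects they were miR-365-3p at 0.205 and miR-378a-5p at 0.160 with library totals alone, miR-365-3p at 0.00877 with DESeq2, miR-193a-3p at -0.0508 with the class term and -0.0606 within class A, and, within class B, miR-193a-3p at -0.134 and miR-378a-5p at 0.436. Between sham groups they were miR-378a-5p at -0.00685 with the series term and -0.0178 within class B, and miR-193b-3p at -0.00593 within class A. Between Ang II groups they were miR-365-3p at 0.215 and miR-378a-3p at 0.170 with library totals alone, miR-365-3p at 0.0108 with edgeR and 0.0178 with DESeq2, miR-378a-5p at -0.166 with the series term, miR-378a-3p at 0.0602 within class A and miR-193a-3p at -0.134 within class B. Of the log2 ratios, miR-193b-3p over miR-365-3p at 7 days was 0.124 within series 28, and miR-193a-3p over miR-193b-3p was 0.441 within series 27 at 7 days (exact permutation p = 0.0318 before adjustment) and -0.147 within series 26 at 14 days.

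With each library left out in turn, the called miRNAs numbered 0 to 1 at 7 days, 21 to 42 at 14 days, and 0 to 1 between sham groups, and the called members at 14 days 0 to 1. At 14 days the count was 21 without Ang II replicate 3 and 23 without Ang II replicate 5 or 7 or sham replicate 5 or 8. The log2 fold change of miR-193a-3p at 7 days ran from -0.00624 to 0.116, and that of miR-365-3p from -0.103 to 0.0346 at 7 days, -0.141 to 0.0602 at 14 days, -0.120 to 0.0816 for the difference, -0.0714 to 0.109 between sham groups and -0.0875 to 0.0903 between Ang II groups. For miR-378a-5p the difference of the effects ran from -0.162 to 0.0415. miR-378c at 14 days reached an adjusted p of 0.0423 in limma without Ang II replicate 2. The log2 ratio of miR-378a-5p over miR-378a-3p ran from -0.347 to -0.207 at 7 days and -0.135 to 0.00388 at 14 days. That of miR-193b-3p over miR-365-3p ran from -0.0269 to 0.169 at 14 days, and that of miR-193a-3p over miR-193b-3p from 0.227 to 0.427 at 7 days and -0.0395 to 0.341 at 14 days. Depth limits the 5p strands other than miR-378a-5p, where 1 read moves a value.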
